A study of Homo sapiens with 6 samples.

Results

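The SLC25 carrier family was followed in SET-2 cells, a human megakaryoblastic leukaemia line with a mutant JAK2, after treatment with CPL. Members were all genes of the deposited table whose symbol was SLC25A followed by a number, together with UCP2, UCP3, MTCH1 and MTCH2, which gave 49 of 30735 genes. The 6 libraries fell into 2 groups, 3 of cells treated with CPL and 3 of cells labelled as placebo and called control here. All came from the same cell line, and the labels give neither what CPL is nor its dose or time. The comparison asks which genes differ in expression between cells treated with CPL and control cells. Nothing in the labels ties the replicates to different cultures, and the p-values therefore reflect spread among 6 libraries that may be partly technical.

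Mitochondrial carriers are small membrane proteins, most of them in the inner mitochondrial membrane. Each exchanges or imports a defined group of metabolites, such as ADP and ATP, phosphate, citrate, amino acids, cofactors or iron. In the erythroid lineage they are best known for delivering iron and glycine to the matrix for haem synthesis. MTCH1, MTCH2 and SLC25A46 are relatives that sit in the outer membrane, and SLC25A17 is found in peroxisomes.

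The values are FPKM, reads scaled to gene length and library size. Library totals were fitted so that these values became whole reads. The fitted totals were 15481202 to 16174510 in the CPL libraries and 14646649 to 18238806 in the control libraries. At this depth 3 reads on a gene of 1 kilobase amounted to between 0.164 and 0.205 FPKM, a floor that covers counting error only. All 7 megakaryocyte markers in the table had at least 1 FPKM in every library, ITGA2B with 151 to 227 FPKM in CPL and 150 to 175 FPKM in control. Of 5 lymphocyte markers, 4 were in the table and CD79A alone reached 1 FPKM in every library. Of the 6 libraries, CPL replicate 1 stood apart, and genes rich in G and C were high in it. The rank correlation of its deviation from the mean of all libraries with the GC content of the longest transcript was 0.736 over all tested genes, against −0.475 to −0.005 in the other CPL libraries and −0.51 to −0.115 in control.

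No carrier gene rose or fell after CPL at an adjusted p under 0.05, and most differences were small. Of the 49 members, 40 passed the filter of at least 1 FPKM in at least 3 libraries and entered limma on log2(FPKM + 1) with 13092 genes. None of the 40 was called, beside 1.76% of all tested genes (1.09% higher and 0.665% lower in CPL). The lowest adjusted p was 0.0881, for the mitoferrin gene SLC25A37. At an unadjusted p under 0.05 there were 9 members (22.5%), 2 higher and 7 lower in CPL, beside 19.5% of all tested genes, so this share was near the background. The change of the members ran from −0.36 to 0.55 on the log2 scale with a median SE of 0.13, and 30 of 40 were under 0.25 in size. Their median change was −0.07, beside −0.01 over all tested genes, and 25 of 40 changes were negative (62.5%, beside 50.8%).

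The libraries of the 2 groups did not overlap for 15 of 40 members, a share of 37.5%, beside 29.1% of all tested genes. In 11 members all CPL libraries lay below all control libraries (27.5%, beside 14.9% of tested genes). In 4 all lay above them (10%, beside 14.1%). The 11 included SLC25A3, SLC25A4, SLC25A5, SLC25A12, SLC25A13, SLC25A15, SLC25A17, SLC25A32, SLC25A43 and MTCH2, and the 4 were SLC25A20, SLC25A28, SLC25A29 and SLC25A37.

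**Figure D1:**
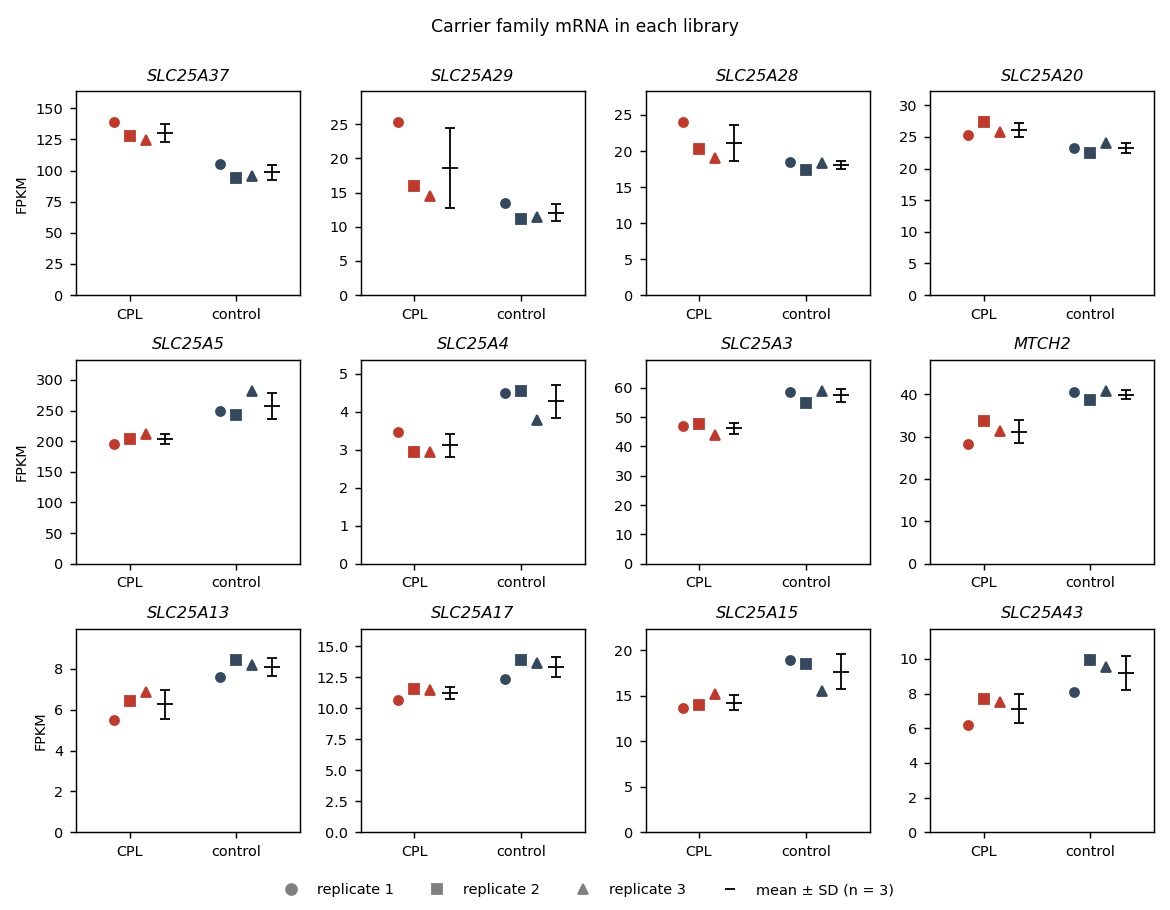
FPKM of 12 carrier family members in each library, CPL on the left and control on the right, with a marker shape per replicate and a bar for the mean ± SD (n = 3). SLC25A37 sits at 125 to 139 FPKM in CPL and 94.4 to 105 FPKM in control. All 12 are from the 15 of 40 tested members whose groups do not overlap. The 25 tested members whose groups overlap are not drawn.

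When the GC trend was removed from each library by loess before the same fit, 5 members passed. SLC25A37 and SLC25A29 were higher in CPL, and 3 were lower, SLC25A13 and MTCH2 among them. These 5 of 40 (12.5%) stand beside 13.3% of all tested genes called in that fit (6.99% higher, 6.3% lower), so the family was called about as often as the genes at large. SLC25A5 lay just outside with an adjusted p of 0.0506. In that fit 13 members (32.5%) had an unadjusted p under 0.05, beside 30.5% of all tested genes. Without CPL replicate 1, with values as deposited, SLC25A37 was the member that passed (adjusted p = 0.0487), beside 5.57% of all tested genes called (2.84% higher, 2.73% lower) and 23.5% at an unadjusted p under 0.05.

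**Figure D2:**
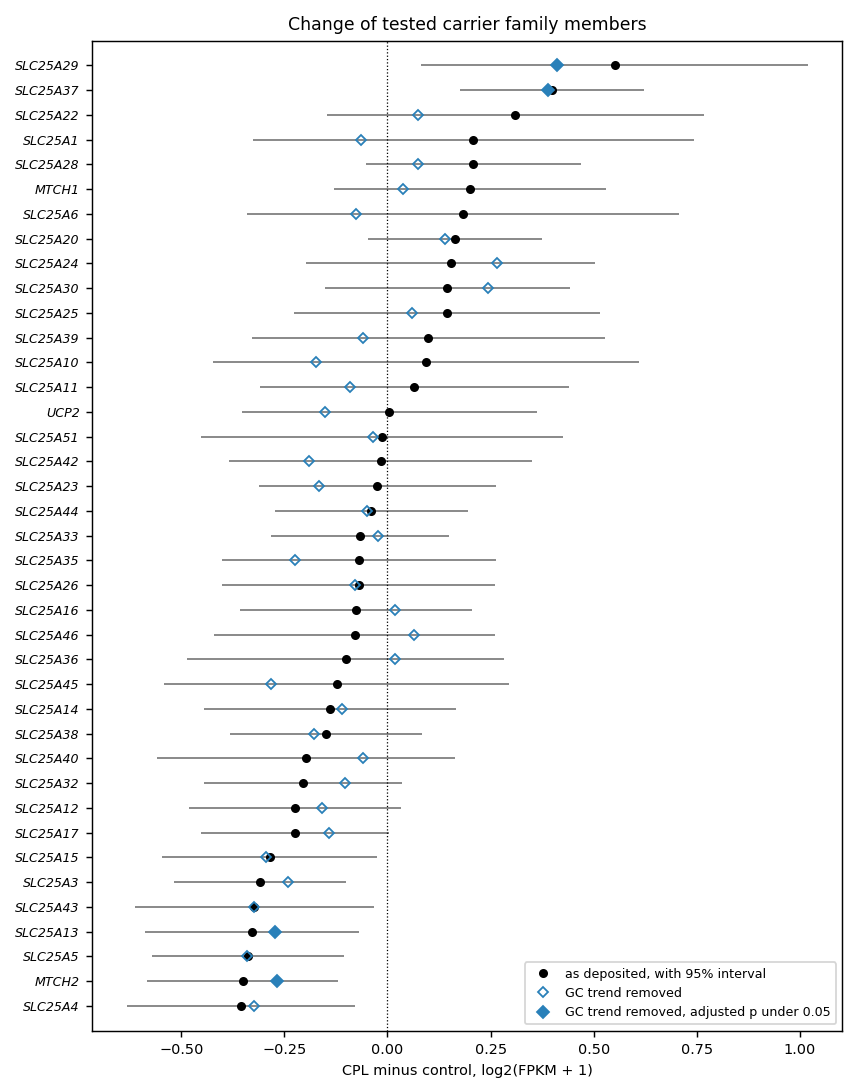
Log2 change, CPL minus control, of 39 of the 40 tested members, in order of size. Black points are values as deposited with their 95% interval, blue diamonds the change with the GC trend removed, filled for the 4 members shown with an adjusted p under 0.05 in that fit. SLC25A29 (0.55) and SLC25A4 (−0.36) are at the 2 ends.

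In level the family was led by a few genes. Summed over all 49 members it came to 987, 894 and 850 FPKM in CPL replicates 1, 2 and 3 and to 938, 891 and 956 FPKM in control replicates 1, 2 and 3. That was 0.326%, 0.290% and 0.284% of all FPKM in CPL and 0.322%, 0.291% and 0.309% in control, and the groups overlapped. The 5 most abundant members, SLC25A5, SLC25A37, SLC25A6, SLC25A3 and UCP2, made up 56.1% to 56.3% of the family's FPKM in CPL and 56.3% to 58.5% in control. A mean of at least 10 FPKM over all libraries was reached by 20 members, and 9 members averaged under 1 FPKM.

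The ADP/ATP carriers exchange cytosolic ADP for matrix ATP and were the largest class. Their main gene here was SLC25A5, the isoform typical of dividing cells (ENSG00000005022, chromosome X, 119468400 to 119471319, GRCh38). It had 195, 203 and 212 FPKM in CPL replicates 1, 2 and 3, and 249, 242 and 282 FPKM in control replicates 1, 2 and 3. Every CPL library was below every control library. The means were 203 ± 8.498 FPKM in CPL and 257 ± 21.2 FPKM in control (SD, n = 3 each). The log2 change was −0.34 ± 0.10 (SE) with a 95% interval from −0.57 to −0.11, and it did not pass (adjusted p = 0.134). SLC25A4, the isoform of heart and muscle, was far less abundant on the FPKM scale, with 3.47, 2.94 and 2.94 FPKM in CPL and 4.496, 4.54 and 3.78 FPKM in control, from 229 to 260 reads in CPL and 310 to 401 in control. Its groups did not overlap either, and its log2 change of −0.36 (95% interval −0.63 to −0.08) did not pass (adjusted p = 0.169). With the GC trend removed its adjusted p was 0.0725.

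SLC25A6, the third ADP/ATP carrier gene, which lies in the pseudoautosomal region of the X chromosome, behaved differently between the CPL libraries. It had 122, 80.8 and 64.1 FPKM in CPL replicates 1, 2 and 3 and 82.5, 66.1 and 79.1 FPKM in control. The highest and the lowest of the 6 values were both CPL libraries, so the groups overlapped. Its transcript had a GC content of 64.9%, and CPL replicate 1, the library high in GC-rich genes, gave the highest value. The log2 change was 0.18 (95% interval −0.34 to 0.71, adjusted p = 0.689), and −0.07 without that library. The 3 genes together came to 321, 287 and 279 FPKM in CPL and 336, 313 and 365 FPKM in control, with 1 CPL library inside the control range. SLC25A5 held 60.8%, 70.8% and 76.0% of that sum in CPL and 74.1%, 77.4% and 77.3% in control. The table also lists 5 processed copies of SLC25A5 and 4 of SLC25A6, whose summed level stayed at or under 0.965 and 0.281 FPKM in any library. The counting rule for reads that match several copies is unknown here, so part of their reads may be counted under another copy.

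The ATP-magnesium and phosphate exchangers set the size of the matrix adenine nucleotide pool and were lower in level. SLC25A24 had 14.4, 18.4 and 21.3 FPKM in CPL and 17.3, 15.3 and 15.1 FPKM in control. CPL replicate 1 was the lowest of all 6 libraries and the other CPL libraries were the highest (log2 change 0.15, 95% interval −0.20 to 0.50). Without CPL replicate 1 the change was 0.30 (adjusted p = 0.123). 2 pseudogenes of SLC25A24 reached 3.15 and 2.28 FPKM in CPL and 3.55 and 2.01 FPKM in control, so reads may be divided among them. SLC25A23 and SLC25A25 had 2.18 to 2.44 and 4.03 to 6.29 FPKM in CPL, against 2.01 to 2.59 and 3.83 to 4.63 FPKM in control, with overlapping groups. SLC25A41 had at most 7 reads in a library.

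SLC25A3 (chromosome 12, 98593591 to 98606379) imports the phosphate that ATP synthase uses, and it was among the lower members. It had 46.9, 47.7 and 43.9 FPKM in CPL and 58.5, 54.9 and 58.9 FPKM in control, on 6277 to 6867 reads in CPL and 7625 to 8914 in control. The groups were separate, and the means were 46.2 ± 1.99 FPKM in CPL and 57.4 ± 2.17 FPKM in control (SD, n = 3 each). The log2 change of −0.31 ± 0.09 (SE, 95% interval −0.52 to −0.10) did not pass (adjusted p = 0.128, or 0.0566 without CPL replicate 1 and 0.107 with the GC trend removed).

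Of the carboxylate carriers, SLC25A1 exports the citrate used for lipid synthesis. It had 27.5, 19.9 and 13.6 FPKM in CPL and 17.1, 14.99 and 18.5 FPKM in control, so the CPL libraries spanned the whole control range. The oxoglutarate-malate carrier gene SLC25A11 had 30.7, 22.2 and 19.8 FPKM in CPL and 22.1, 22.1 and 24.01 FPKM in control. The dicarboxylate carrier gene SLC25A10 had 2.59, 1.06 and 1.26 FPKM in CPL and 1.22, 1.42 and 1.55 FPKM in control. For each of these 3 genes CPL replicate 1 was the highest library, their transcripts had a GC content of 65.6%, 59.3% and 65.4%, and the positive log2 changes of 0.21, 0.07 and 0.09 became −0.03, −0.11 and −0.15 without that library. SLC25A30, a carrier of inorganic anions, had 3.01 to 3.78 FPKM in CPL and 2.64 to 3.34 FPKM in control. SLC25A11 overlaps RNF167 on the other strand, which reached 50.8 FPKM and whose reads could be counted with it.

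Among the amino acid carriers was the member with the largest change as deposited, SLC25A29. Without CPL replicate 1 its change (0.319) was smaller in size than those of several members, among them SLC25A4 (−0.42), SLC25A37 (0.35) and SLC25A3 (−0.320). SLC25A29 (chromosome 14, 100291111 to 100306547) imports basic amino acids such as arginine and lysine. It had 25.2, 15.9 and 14.5 FPKM in CPL and 13.5, 11.2 and 11.4 FPKM in control. All CPL libraries were higher, CPL replicate 1 by far the most, and the means were 18.5 ± 5.84 FPKM in CPL and 12.02 ± 1.25 FPKM in control (SD, n = 3 each), a 1.54-fold ratio. The log2 change was 0.55 ± 0.20 (SE, 95% interval 0.08 to 1.02) and did not pass (adjusted p = 0.199). It was 0.32 without CPL replicate 1 (adjusted p = 0.117) and 0.41 with the GC trend removed, where it passed (adjusted p = 0.0356). With both the GC trend and CPL replicate 1 removed it was 0.32 and no longer passed (adjusted p = 0.05125).

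SLC25A13 (chromosome 7, 96120220 to 96322147) and SLC25A12 encode the aspartate-glutamate carriers of the malate-aspartate shuttle, which moves reducing equivalents into mitochondria. SLC25A13 had 5.48, 6.43 and 6.85 FPKM in CPL and 7.62, 8.44 and 8.19 FPKM in control. SLC25A12 had 4.54, 5.43 and 5.55 FPKM in CPL and 5.904, 6.49 and 6.18 FPKM in control. Both paralogs were lower in every CPL library. Their log2 changes were −0.33 ± 0.11 for SLC25A13 and −0.22 ± 0.11 for SLC25A12 (SE, adjusted p = 0.174 and 0.311), and SLC25A13 passed with the GC trend removed (−0.27, adjusted p = 0.0490). That call was lost when CPL replicate 1 was also left out (−0.23, adjusted p = 0.1095). SLC25A12 overlaps METAP1D and HAT1 on the other strand, whose reads could be counted with it, as no strand setting is known.

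SLC25A15, the ornithine carrier of the urea cycle, had 13.6, 14.03 and 15.1 FPKM in CPL and 18.95, 18.5 and 15.5 FPKM in control. The groups were separated by a narrow gap between 15.1 and 15.5 FPKM (log2 change −0.29, 95% interval −0.55 to −0.02, adjusted p = 0.224). SLC25A20, the carnitine-acylcarnitine carrier of fatty acid oxidation, was a little higher in CPL, with 25.3, 27.3 and 25.8 FPKM, against 23.2, 22.4 and 23.998 FPKM in control (log2 change 0.16, 95% interval −0.05 to 0.37). SLC25A38, which imports glycine for haem synthesis and is mutated in a congenital sideroblastic anaemia, had 12.7, 13.4 and 12.6 FPKM in CPL and 14.9, 13.1 and 15.2 FPKM in control. Its groups overlapped by 1 control library (log2 change −0.15, 95% interval −0.38 to 0.08). SLC25A22, a glutamate carrier gene, had 14.3, 9.805 and 8.16 FPKM in CPL and 7.096, 8.82 and 9.02 FPKM in control. SLC25A44, a carrier of branched-chain amino acids, had 5.001 to 5.27 FPKM in CPL and 4.98 to 5.74 FPKM in control. SLC25A18 reached at most 0.235 FPKM and SLC25A2 at most 0.0881 FPKM.

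The iron and glutathione carriers had the highest median change of the 8 role classes, 0.15 on the log2 scale over 4 genes, with the values as deposited. That median was 0.02 without CPL replicate 1 and 0.01 with the GC trend removed, and in both fits the outer membrane relatives were higher (0.05 and 0.04). SLC25A37 encodes mitoferrin-1, which imports iron into the mitochondria of developing red cells (chromosome 8, 23528805 to 23575463). It was the second most abundant member, with 139, 128 and 125 FPKM in CPL and 105, 94.4 and 95.97 FPKM in control, on at least 12560 reads in every library. The groups were separate, and the means were 130 ± 7.35 FPKM in CPL and 98.5 ± 5.87 FPKM in control (SD, n = 3 each). The log2 change was 0.40 ± 0.10 (SE, 95% interval 0.18 to 0.62). It missed the threshold with all libraries as deposited (adjusted p = 0.0881) and passed with the GC trend removed (0.39, adjusted p = 0.0113), also without CPL replicate 1 in that fit (0.37, adjusted p = 0.0237). The change was between 0.35 and 0.45 in the fits that left out 1 library, with adjusted p from 0.0487 to 0.308. Its transcript had a GC content of 50.1%, near the middle of the family.

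Its paralog SLC25A28, mitoferrin-2, serves iron import in most other cells. It had 23.96, 20.3 and 19.05 FPKM in CPL and 18.5, 17.4 and 18.3 FPKM in control. All CPL libraries were higher, by less than for SLC25A37 (log2 change 0.21, 95% interval −0.05 to 0.47, adjusted p = 0.350, and 0.07 with the GC trend removed). The ratio of SLC25A37 to SLC25A28 was 5.79, 6.28 and 6.54 in CPL and 5.70, 5.42 and 5.24 in control. SLC25A39 and SLC25A40 import glutathione into mitochondria. SLC25A39 had 46.9, 32.5 and 27.8 FPKM in CPL and 33.2, 30.3 and 34.2 FPKM in control, with the highest and the lowest value in CPL. SLC25A40 had 6.45, 7.78 and 9.29 FPKM in CPL and 10.5, 8.96 and 7.83 FPKM in control. It overlaps DBF4 on the other strand, which reached 21.6 FPKM and whose reads could be counted with it. Within the CPL libraries SLC25A39 and SLC25A40 ran in opposite orders, and their GC contents were 59.4% and 34.2%. Markers of red cells were also uneven, with the 6 marker genes summing to 499 to 1452 FPKM in CPL and 497 to 599 FPKM in control. Their part in the iron carrier values was not tested.

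All 9 tested carriers of cofactors and other nucleotides had a negative log2 change, and none passed in the fit of the values as deposited. The peroxisomal cofactor carrier gene SLC25A17 had 10.7, 11.5 and 11.5 FPKM in CPL and 12.4, 13.9 and 13.7 FPKM in control. The folate and FAD carrier gene SLC25A32 had 14.9, 16.6 and 16.4 FPKM in CPL and 20.05, 18.4 and 17.3 FPKM in control. It overlaps DCAF13 on the other strand. Both were lower in every CPL library without passing (adjusted p = 0.260 and 0.319). SLC25A36, a carrier of pyrimidine nucleotides, had 9.86, 12.1 and 13.97 FPKM in CPL and 14.05, 14.3 and 10.4 FPKM in control. The related SLC25A33 differed little, with 9.56 to 10.2 FPKM in CPL and 9.95 to 10.6 FPKM in control. SLC25A42 and SLC25A16, linked to coenzyme A, SLC25A26, which carries S-adenosylmethionine, and SLC25A51, which carries NAD, had 1.13 to 6.83 FPKM in CPL and 1.21 to 5.62 FPKM in control, with overlapping groups for each. With the GC trend removed 7 of the 9 changes were negative.

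UCP2, an uncoupling protein relative that is common in blood cells, was the fifth most abundant member. It had 51.8, 42.5 and 34.3 FPKM in CPL and 39.04, 43.7 and 43.8 FPKM in control. The CPL libraries lay on both sides of control, and the log2 change was 0.00 with a 95% interval from −0.35 to 0.36. The muscle gene UCP3 had 0.158, 0.336 and 0.169 FPKM in CPL and 0.0741, 0.342 and 0.192 FPKM in control. It stayed under the filter. SLC25A14, known as brain uncoupling protein, had 2.51, 3.27 and 2.71 FPKM in CPL and 3.68, 3.08 and 2.903 FPKM in control, and SLC25A27 had at most 4 reads in a library.

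Of the outer membrane relatives, neither MTCH1 nor MTCH2 passed as deposited. MTCH2 (chromosome 11, 47617315 to 47642623) inserts proteins into the outer membrane and binds the death protein BID. It had 28.3, 33.7 and 31.4 FPKM in CPL and 40.4, 38.6 and 40.7 FPKM in control. The groups were separate, with means of 31.2 ± 2.71 FPKM in CPL and 39.9 ± 1.12 FPKM in control (SD, n = 3 each). Its log2 change of −0.35 ± 0.10 (SE, 95% interval −0.58 to −0.12) missed the threshold (adjusted p = 0.122) and passed with the GC trend removed (−0.27, adjusted p = 0.0444). It did not pass when CPL replicate 1 was left out of that fit (adjusted p = 0.0768). MTCH1 had 47.05, 38.5 and 32.6 FPKM in CPL and 35.1, 31.7 and 34.7 FPKM in control, with overlapping groups. The change of MTCH1 was 0.20 (95% interval −0.13 to 0.53). It was 0.07 without CPL replicate 1 and 0.04 with the GC trend removed. The ratio of MTCH1 to MTCH2 was 1.66, 1.14 and 1.04 in CPL and 0.869, 0.819 and 0.853 in control. The highest ratio was in CPL replicate 1, and the GC contents were 59.65% for MTCH1 and 42.6% for MTCH2. The part of GC content in this ratio was not tested. SLC25A46, which acts in mitochondrial shape, had 3.79, 5.16 and 5.42 FPKM in CPL and 4.56, 5.69 and 5.02 FPKM in control.

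Of the members with little or no settled substrate, SLC25A43 was lower in every CPL library, with 6.1999, 7.68 and 7.53 FPKM in CPL and 8.07, 9.94 and 9.51 FPKM in control (log2 change −0.32, 95% interval −0.61 to −0.03, adjusted p = 0.218). With the GC trend removed SLC25A43 did not pass (adjusted p = 0.108), and with a replicate block added to that fit it did (adjusted p = 0.0457). It is a close neighbour of SLC25A5 on chromosome X (119399060 to 119454478), and the 2 genes had log2 changes of −0.32 and −0.34. SLC25A45 had 1.85, 0.944 and 1.04 FPKM in CPL and 1.48, 1.52 and 1.34 FPKM in control, and SLC25A35 had 1.48, 1.396 and 1.02 FPKM in CPL and 1.44, 1.45 and 1.32 FPKM in control. SLC25A34, SLC25A48 and SLC25A53 did not pass the filter, nor did SLC25A52, a relative of the NAD carrier with at most 3 reads in a library.

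GC content ran with the members' values in CPL replicate 1. Over the 40 tested members, the rank correlation of GC with the difference from the control mean was 0.804 for CPL replicate 1, against 0.194 for the second and −0.181 for the third CPL library, a description over genes that share a library. CPL replicate 1 was the highest of the 6 libraries for 15 of the 20 members at or above the median GC of 50.0% and for 0 of the 20 below it. It was the lowest of the 6 for 0 of the GC-rich 20 and for 14 of the others. The median log2 change was 0.10 in the GC-rich members and −0.20 in the others, and −0.07 and −0.11 with the GC trend removed. The part of GC content in any 1 member's change was not tested.

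**Figure D3:**
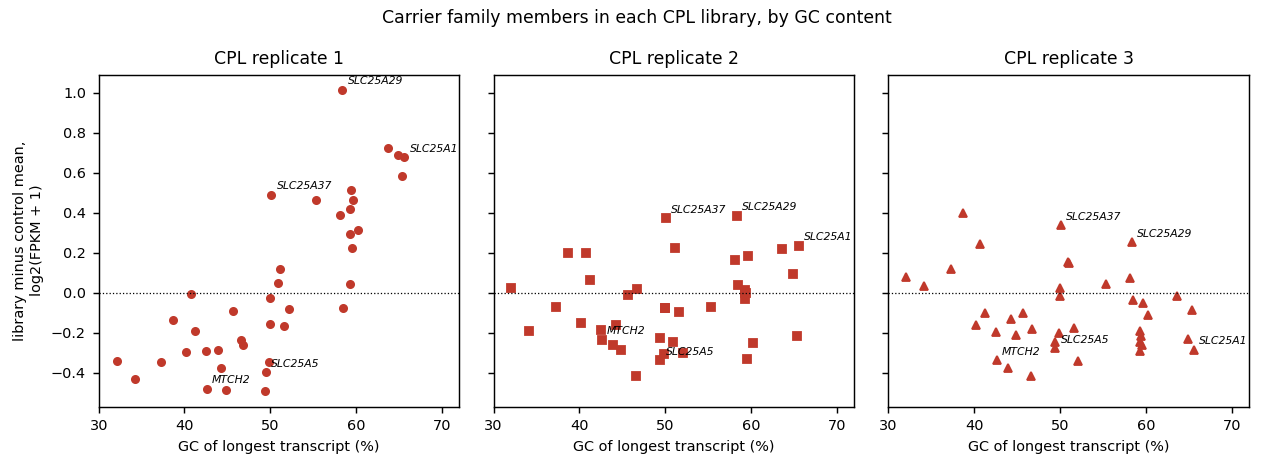
Difference of each CPL library from the control mean on the log2(FPKM + 1) scale against the GC content of the longest transcript, 1 panel per CPL library, 1 point for each of the 40 tested members. Values climb with GC in CPL replicate 1, up to 1.02 for SLC25A29, and stay within −0.42 and 0.40 in the other CPL libraries.

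Other genes of mitochondrial transport and of the pathways that the carriers serve were read from the same fit in 6 lists. Of 76 tested genes, 1 passed as higher in CPL and 0 as lower, beside 1.09% and 0.665% of all tested genes. At an unadjusted p under 0.05 7 were higher and 18 lower, beside 9.54% and 10% of all tested genes. The gene that rose was ALAS1, the rate-limiting enzyme of haem synthesis outside the red cell lineage, which joins glycine and succinyl-CoA. It had 42.1, 45.6 and 46.9 FPKM in CPL and 26.9, 24.6 and 26.4 FPKM in control, a log2 change of 0.76 ± 0.09 (SE, adjusted p = 0.0156). ALAS1 no longer passed when any 1 control library was left out (adjusted p = 0.0941, 0.0975 and 0.105 for replicates 1, 2 and 3) or when CPL replicate 2 was (0.0997), while the change stayed between 0.73 and 0.81. ALAS1 belongs to the list of mitochondrial haem and iron-sulfur enzymes, where 1 of 11 rose and 10 did not pass, with a median change of −0.24. ABCB10, a transporter known in mouse red cell precursors to bind and stabilize mitoferrin-1, had 15.8, 17.6 and 17.7 FPKM in CPL and 24.3, 23.01 and 23.9 FPKM in control. Its groups were separate and the change of −0.46 did not pass (adjusted p = 0.0598, or 0.00636 with the GC trend removed).

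Carrier proteins reach the inner membrane through the TOM and TIM22 complexes. Of 14 tested genes of this import machinery none passed, 11 had a negative change and 5 had all CPL libraries below all control libraries (beside 14.9% of all tested genes), with a median change of −0.18. With the GC trend removed 3 of the 14 were called lower, TOMM20, TIMM10 and TOMM22, beside 6.3% of all tested genes in that fit. TIMM10, a chaperone of carriers between the membranes, had 42.1, 45.8 and 43.03 FPKM in CPL and 72.5, 54.3 and 67.8 FPKM in control (log2 change −0.55, adjusted p = 0.0773, or 0.0167 with the GC trend removed). TOMM20, an import receptor, had 52.2, 62.1 and 64.1 FPKM in CPL and 83.96, 85.7 and 80.4 FPKM in control (log2 change −0.49, adjusted p = 0.0712, or 0.00641 with the GC trend removed). Of 21 other mitochondrial transporters none passed (median −0.11). The 11 enzymes of the malate-aspartate and citrate shuttles had a median of −0.08, and the cytosolic malic enzyme gene ME1, a user of exported citrate carbon, had 21.1, 27.8 and 32.7 FPKM in CPL and 13.3, 15.5 and 15.8 FPKM in control without passing as deposited (log2 change 0.81, adjusted p = 0.0569, or 0.00308 with the GC trend removed). None of 10 genes of the carnitine shuttle and fatty acid oxidation passed (median −0.08), nor any of 9 regulators of mitochondrial biogenesis (median −0.10). With the GC trend removed ACADVL of the carnitine list was called higher and CPT1A lower (limma adjusted p = 0.0123 and 0.0239). TFAM of the biogenesis list was called lower (limma adjusted p = 0.0467). In that fit 2 of the 21 transporters were called higher and 2 lower, and 1 and 1 of the 11 shuttle enzymes. Over all tested genes 6.99% were called higher and 6.3% lower.

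**Figure D4:**
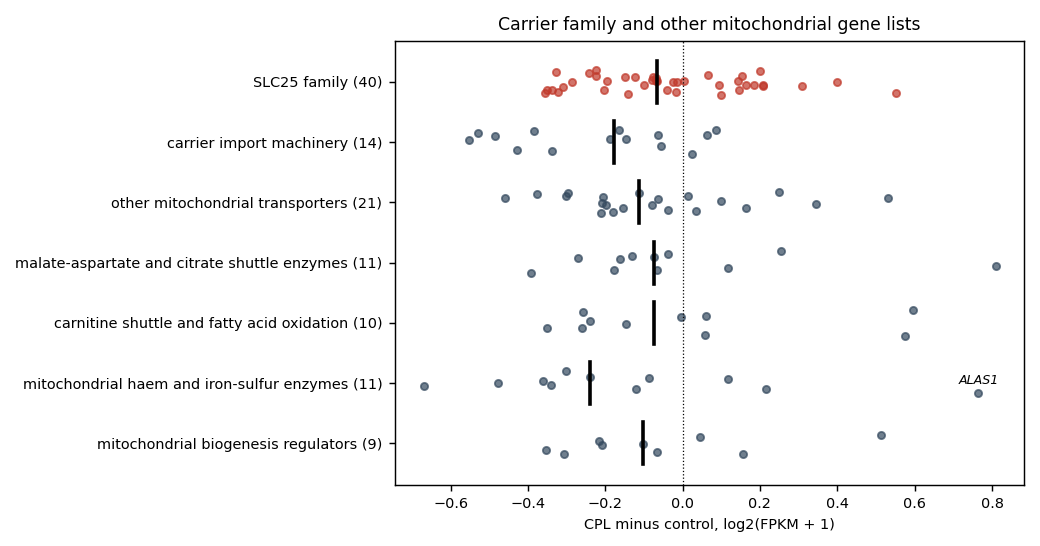
Log2 change, CPL minus control, of each tested gene in the carrier family (red) and in 6 other mitochondrial gene lists (dark blue), with the number of genes in brackets and a bar at each median. ALAS1, at 0.76, is the gene that passed the test, and the median of each list lies between −0.24 and −0.07.

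Promoter sequence was taken from RefSeq (GRCh38.p14) as the 250 bases before the annotated start, and 41 of 49 members had at least 1 such window, 54 windows in all. Among those with none were SLC25A16, SLC25A2, SLC25A30, SLC25A32, SLC25A35, SLC25A37 and SLC25A41. The windows of 3 members that were lower in every CPL library and of the member with the largest positive change are shown because these members separated the groups. Capitals mark, on either strand, the NRF1 core (GCGCA, any base, GCGC), the ETS core CCGGAAG, the antioxidant response element core TGACNNNGC, the E-box CACGTG and the CCAAT box; the GC box GGGCGG was searched but not capitalized. NRF1 and the ETS factor GABP are known regulators of genes for mitochondrial proteins.
SLC25A5, chrX:119468194-119468443, plus strand: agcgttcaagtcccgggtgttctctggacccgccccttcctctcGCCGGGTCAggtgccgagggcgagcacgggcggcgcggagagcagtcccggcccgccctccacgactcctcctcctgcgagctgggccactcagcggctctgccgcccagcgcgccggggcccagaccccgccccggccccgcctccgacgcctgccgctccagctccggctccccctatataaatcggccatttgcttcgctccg
SLC25A3, chr12:98593436-98593685, plus strand: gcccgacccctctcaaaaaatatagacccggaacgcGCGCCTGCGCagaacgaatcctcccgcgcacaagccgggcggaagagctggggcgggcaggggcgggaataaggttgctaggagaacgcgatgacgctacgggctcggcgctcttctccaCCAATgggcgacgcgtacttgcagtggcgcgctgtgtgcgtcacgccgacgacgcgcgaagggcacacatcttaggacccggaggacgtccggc
SLC25A13, chr7:96322099-96322348, minus strand: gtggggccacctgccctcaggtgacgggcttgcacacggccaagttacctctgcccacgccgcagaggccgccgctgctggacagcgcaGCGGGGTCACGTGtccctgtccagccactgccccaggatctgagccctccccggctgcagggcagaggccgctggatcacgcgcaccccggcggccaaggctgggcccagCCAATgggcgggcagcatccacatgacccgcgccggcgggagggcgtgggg
SLC25A29, chr14:100306445-100306694, minus strand: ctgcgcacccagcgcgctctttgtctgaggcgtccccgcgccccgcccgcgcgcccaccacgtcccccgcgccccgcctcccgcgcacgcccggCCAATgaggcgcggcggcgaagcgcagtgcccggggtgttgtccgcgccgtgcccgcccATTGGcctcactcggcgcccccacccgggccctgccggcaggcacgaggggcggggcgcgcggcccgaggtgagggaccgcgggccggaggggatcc

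The SLC25A5 window held 1 antioxidant core, which started 206 bases before the annotated start. The SLC25A3 window held 1 NRF1 core, 214 bases before it, and 1 CCAAT box. In the SLC25A13 window the antioxidant core and the E-box overlap, 161 and 154 bases before the start, and a CCAAT box lies 51 bases before it. The SLC25A29 window held 2 CCAAT boxes, 1 on each strand, and none of the other 4 motifs. Over all members the NRF1 core was in 3 of 54 windows (5.56%, beside 5.09% of 34961 windows of all genes) and the ETS core in 10 (18.5%, beside 8.52%). The antioxidant core was in 8 (14.8%, beside 10.9%), the E-box in 8 (14.8%, beside 6.35%) and the CCAAT box in 21 (38.9%, beside 32%). The GC box was in 39 windows (72.2%, beside 42.7%). None of the 5 capitalized motifs was in all 3 windows of the lower members. A match describes letters and not bound sites.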

How the data were processed

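Poly(A) RNA of 6 SET-2 samples was sequenced as single-end reads of 50 bases, per the labels' protocols. The authors deposited 1 table of FPKM values; its unit was taken from the values, since no header names it. Multiplying FPKM by the merged exon length in GENCODE 29 turned 98.7% to 99% of low values (20 reads or fewer) into whole numbers, with a tolerance of 0.1 read. HISAT2 2.0.4, Bowtie2 2.2.5, RSEM 1.2.12, DESeq2 1.4.5 and GRCh38 are named in the submitters' processing notes with no role, so it is unknown which of them produced the FPKM values. Because FPKM is relative to the library total, a rise of abundant genes lowers all others. Groups came from the sample titles and columns from the descriptions, with 0 value columns of other samples.

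The test took genes that reached 1 FPKM in 3 or more libraries, fitted as log2(FPKM + 1) in limma 3.58.1 (R 4.3.3) with group as the only term, trend and robust moderation, two-sided, and Benjamini-Hochberg adjustment over all tested genes at 0.05. Fold changes on this scale understate those of low genes. The functions were tested on simulated data. The GC trend was removed with loess (span 0.5) on the GC of the longest GENCODE transcript, in each library against the mean of all libraries, which also removes any GC trend that CPL itself caused. Summaries used pandas 2.3.3 and numpy 2.4.6 under Python 3.11.15; matplotlib 3.10.9 drew the figures.

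The members, the 8 role classes and the 6 lists were chosen with earlier results of these data known. Values per library were set to be given for members past the threshold as deposited or with the GC trend removed, for the 3 most abundant of each class, and for members with separate groups and a log2 change of at least 0.5. Further members were described after their values were seen. From each list up to 4 genes past the threshold were to be named. ABCB10, TIMM10, TOMM20, TOMM22, ME1, PPOX, CPOX, FECH, ACADVL, CPT1A and TFAM were added after their values were seen. SLC25A21, SLC25A31 and SLC25A47, which were on the class lists, and PF4, MS4A1, PPARGC1A and TOMM6 were not analysed here, and the values of 1 tested member are not reported here. Same-numbered CPL and control libraries deviated from their group means with correlations of 0.084, 0.088 and −0.168.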

Additional observations from a re-analysis of the deposited data

How the results depend on the processing

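Of the 40 tested members, the count called higher was 0 as deposited, 2 with the GC trend removed (also with a replicate block), 1 with it removed and CPL replicate 1 left out, and 0 to 1 over the fits without 1 library. The count called lower was 0 as deposited, 3 with the GC trend removed, 1 with a replicate block added, and 1 without CPL replicate 1 in that fit. The members called lower differed from fit to fit. Over all genes, 143 were called higher and 87 lower. These became 21 and 4 with no filter, 914 and 824 with the GC trend removed, 552 and 524 with a replicate block added to that, 626 and 552 with the GC trend removed and without CPL replicate 1, and 20 to 363 and 1 to 348 without 1 library. With the replicate block they were 48 and 15. Same-numbered libraries share a number in their titles and column names. The correlations of their deviations rest on 3 libraries per group, too few to settle whether they were paired, which is not known here. In the 6 other lists 1 gene was called higher and 0 lower. These became 0 higher with no filter or with the replicate block, 2 and 1 at a minimum of 5 FPKM, 6 and 11 with the GC trend removed, 3 and 8 with the block added, 5 and 7 with the GC trend removed and without CPL replicate 1, and 0 to 2 and 0 to 5 without 1 library. The cause was not tested.

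All alternatives were followed for the 25 tested members picked by the naming rule, and the log2 change of 8 of these reversed, each with an adjusted p over 0.05 as deposited. With the GC trend removed, with or without the replicate block, the change was −0.0635 for SLC25A1, −0.0753 for SLC25A6, −0.0912 for SLC25A11, 0.0189 for SLC25A36, −0.0591 for SLC25A39, 0.0645 for SLC25A46 and −0.1513 for UCP2. With the GC trend removed and CPL replicate 1 left out it was −0.0453 for SLC25A1, −0.0867 for SLC25A6, −0.1150 for SLC25A11, 0.0348 for SLC25A36, −0.1143 for SLC25A39, 0.0589 for SLC25A46 and −0.1438 for UCP2. UCP2 was also −0.0189 with median centring. Over the fits that left out 1 library the change ran from −0.0258 to 0.4554 for SLC25A1, −0.0691 to 0.3919 for SLC25A6, −0.1110 to 0.1925 for SLC25A11, −0.2365 to 0.0219 for SLC25A36, −0.1101 to 0.2572 for SLC25A39, −0.1600 to 0.0512 for SLC25A46, −0.1398 to 0.1521 for UCP2 and −0.1248 to 0.0209 for SLC25A35. These reversals came without CPL replicate 1, except for SLC25A35 without CPL replicate 3 and UCP2, which reversed also without control replicate 1. SLC25A10, SLC25A16, SLC25A23, SLC25A25, SLC25A42, SLC25A44 and SLC25A51, outside those 25, also changed sign with the GC trend removed or with 1 library left out. Of 422 recomputed changes of these 25 members, 381 kept their direction and side of the threshold and 10 newly passed it. With the replicate block added to the GC fit, SLC25A13 and MTCH2 no longer passed (adjusted p = 0.069 and 0.101). The 1 member called lower there was SLC25A43 (−0.3242, adjusted p = 0.0457), which the GC fit without the block did not call (adjusted p = 0.108).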

Other observations

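Some members under the filter had uneven reads. SLC25A34 had 40, 33 and 8 reads in CPL replicates 1, 2 and 3 and 34, 39 and 46 reads in control. SLC25A18, a glutamate carrier gene, had 14, 18 and 12 reads in CPL and 14, 5 and 4 reads in control. SLC25A48 had 124, 133 and 146 reads in CPL and 121, 111 and 140 reads in control, and SLC25A53 had 67, 49 and 61 reads in CPL and 55, 106 and 65 reads in control. The ratio of SLC25A13 to SLC25A12 was 1.209, 1.185 and 1.233 in CPL and 1.29, 1.30 and 1.33 in control, so the CPL libraries were lower in this ratio than the control libraries. Among genes of haem synthesis, PPOX, which acts just before ferrochelatase, had 11.01, 7.62 and 7.05 FPKM in CPL and 13.9, 14.1 and 13.9 FPKM in control, and CPOX had 24.9, 29.3 and 28.4 FPKM in CPL and 37.4, 35.3 and 32.6 FPKM in control. Neither passed as deposited (limma adjusted p = 0.0841 and 0.147), and both were called lower with the GC trend removed (0.000687 and 0.0308). FECH, the ferrochelatase that inserts iron into haem, had 15.7, 17.4 and 16.2 FPKM in CPL and 14.3, 13.2 and 14.6 FPKM in control, did not pass as deposited (limma adjusted p = 0.275) and was called higher with the GC trend removed (0.0482).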
